A study of Mus musculus with 12 samples.

Results

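A set of 10 endothelial genes, Cdh5, Pecam1, Kdr, Tie1, Tek, Eng, Vwf, Nos3, Emcn and Esm1, was followed in RNA sequenced from mouse aortas after infusion of porcine pancreatic elastase (PPE). They were taken as a named list of endothelial markers, by a rule that uses no measured value, although the list was drawn up with earlier results of these data known. Each was represented by the RefSeq accession with its highest mean level. Of these 10 genes 7 had an accession with enough counts to test, among 12756 tested features of 34755 in the count table. The animals were male C57BL/6J mice, 10 weeks old at the time of the experiments, and the infrarenal segment of the aorta was infused in all of them. There were 3 groups of 4 mice: PPE with harvest at day 14 (PPE week 2), PPE with harvest at day 7 (PPE week 1), and saline with harvest at day 7 (saline). PPE breaks down the elastic fibres of the wall, and the infused segment then widens. Since saline was harvested only at day 7, PPE week 2 differs from it in the time since surgery as well as in the infusate, and these cannot be told apart. The labels name no engineered allele and no other agent.

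Endothelial cells line the lumen of every vessel. They hold to each other through VE-cadherin junctions, read growth signals through the VEGF and angiopoietin receptors, release nitric oxide that relaxes the smooth muscle beneath them, and store von Willebrand factor, which tethers platelets when the wall is injured. In the aorta they form a single layer, so their transcripts are a small share of the RNA of the whole wall. In such bulk tissue fewer endothelial cells and less RNA per cell cannot be told apart.

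Libraries held 8343313 to 12269131 counts, of which 19.5 to 49.9% fell on the precursor of ribosomal RNA, NR_046233. That share was 20.4% ± 1.13 at PPE week 2, 30.4% ± 6.34 at PPE week 1 and 41.3% ± 6.48 in saline (mean ± SD, n = 4 each). Levels are therefore given as CPM, counts per 1000000 counts of a library after TMM scaling, a method that sets libraries on a common footing by the bulk of their genes. Differences between groups are log2 fold changes ± SE from edgeR's quasi-likelihood test on all 12 libraries, with p-values adjusted over all 12756 features, and a gene is called where the adjusted p is under 0.05. Replicates had Pearson correlations of 0.809 to 0.946 across genes, which are not independent replicates, and the biological coefficient of variation was 0.512.

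Of these genes, 3 could not be read from the counts. Pecam1, an adhesion molecule of the endothelial junction also known as CD31, lies at chr11:106654213-106715281 (mm10) and had 4 accessions, all with a count of 0 in all 12 libraries. Tek, the angiopoietin receptor Tie2, lies at chr4:94739086-94874976 and had 3 accessions, again at 0 throughout. Eng, or endoglin, is a co-receptor for BMP and TGF-beta ligands at chr2:32646595-32682669. Its 3 accessions together held 1 count, in PPE week 1 replicate 4. These 10 accessions had at most 139 bases that no other isoform of their gene shares, so counts of 0 say nothing of whether the genes were expressed. By contrast Cdh5, Kdr, Tie1, Vwf, Nos3 and Esm1 each had a single accession in the table, so they share no base with another counted isoform. They are called fully counted below. For Nos3, however, 1334 of its 4132 bases overlap genes on the opposite strand.

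RefSeq promoters were at hand for 6 of the 10 genes, Eng, Emcn, Tek, Tie1, Kdr and Esm1, and those of Esm1 and Tie1 are shown because Esm1 gave the largest difference from saline among the 7 tested genes and Tie1 carries the most ETS cores of the 6. ETS factors such as ERG and FLI1 are regulators of endothelial genes. Each window runs from 250 bases before to 50 bases after the RefSeq start, on the strand of the gene, in build GRCm38.p6, with the 4-letter ETS core GGAA, or TTCC where it lies on the other strand, in capitals. Esm1 is on the forward strand at chr13:113209409-113209708, and Tie1 is on the reverse strand at chr4:118489800-118490099.
Esm1: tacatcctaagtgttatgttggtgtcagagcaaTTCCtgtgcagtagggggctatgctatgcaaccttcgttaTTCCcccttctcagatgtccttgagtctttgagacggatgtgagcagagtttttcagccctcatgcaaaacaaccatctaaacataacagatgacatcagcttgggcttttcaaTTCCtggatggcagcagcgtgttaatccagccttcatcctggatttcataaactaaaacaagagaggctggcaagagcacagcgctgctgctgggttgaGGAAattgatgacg
Tie1: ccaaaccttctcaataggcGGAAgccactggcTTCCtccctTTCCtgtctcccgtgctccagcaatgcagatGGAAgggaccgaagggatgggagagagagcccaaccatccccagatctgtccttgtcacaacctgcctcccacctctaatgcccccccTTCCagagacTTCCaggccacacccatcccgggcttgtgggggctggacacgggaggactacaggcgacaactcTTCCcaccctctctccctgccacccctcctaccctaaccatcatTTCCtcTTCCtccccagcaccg
The Tie1 window holds 9 such cores on either strand, and 1.59% of 32851 mouse promoters of the same length hold at least as many. Emcn had 6, Kdr 5, Eng 4, Esm1 4 and Tek 2, while the median promoter had 3 and 96.0% had at least 1. The longer motif AACAGGAA, a joint site of FOX and ETS factors, was found on either strand only in Emcn among the 6, and in 2.65% of all promoters. The GATA motif AGATAA was found only in Tek, and in 11.2% of all promoters. TATAAA was found in none of the 6 and in 13.6% of all promoters. AACAGGAA contains GGAA, so that these matches overlap, and a match is a description of the letters in the window.

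Esm1 was lower at PPE week 2 than in saline and at PPE week 1, and Vwf and Nos3 were higher at PPE week 2 than at PPE week 1, while Cdh5, Kdr, Tie1 and Emcn were called in none of the 3 comparisons. Counted over the 7 tested members, none was called at PPE week 1 against saline, where 7.89% of all tested features were called (3.98% higher and 3.91% lower), while 1 of the 7 was lower at an unadjusted p under 0.05, a level that 21.7% of all features reached (11.6% higher and 10.1% lower). DESeq2 and limma-voom, run here as alternatives, also called none of them there. The authors' deposited results differed, with Vwf lower at an adjusted p of 0.0343, where 17.4% of their 13810 features were under 0.05. Of the 7, Cdh5 lay wholly above saline and Nos3 wholly below it, where 21.1% of all features did not overlap (12.1% above and 9.01% below). At PPE week 2 against saline 1 member, Esm1, was called lower, where 2.65% of all tested features were called (1.3% higher and 1.35% lower). Esm1 was also the only member without overlap there, wholly below saline, where 8.99% of all features did not overlap (4.55% above and 4.44% below). Between PPE week 2 and PPE week 1, Vwf and Nos3 were called higher and Esm1 lower, where 6.59% of all tested features were called (3.77% higher and 2.82% lower). Vwf and Nos3 lay wholly above PPE week 1, where 15.9% of all features did not overlap (7.24% above and 8.68% below). The median log2 fold change over the members was 0.04 and -0.02 against saline, at PPE week 1 and PPE week 2 in that order, and -0.22 between the weeks, beside 0.003, 0.05 and 0.02 over all features. With the NR_046233 share as a covariate none of the 4 calls passed: Esm1 at PPE week 2 was at -2.60 against saline and -1.77 against PPE week 1 (edgeR adjusted p = 0.853 and 0.424), Vwf at 0.91 (0.153) and Nos3 at 0.92 (0.146). Scaled by library size alone, which put the median of all features at 0.54 for PPE week 2 against saline, Tie1, Vwf and Nos3 were called higher in that comparison (0.67, 0.90 and 1.09, edgeR adjusted p = 0.0372, 0.0160 and 0.0048). The NR_046233 share and the groups move together and cannot be told apart. The 2 comparisons with saline share the 4 saline libraries, and each PPE group enters 2 of the 3 comparisons.

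**Figure D1:**
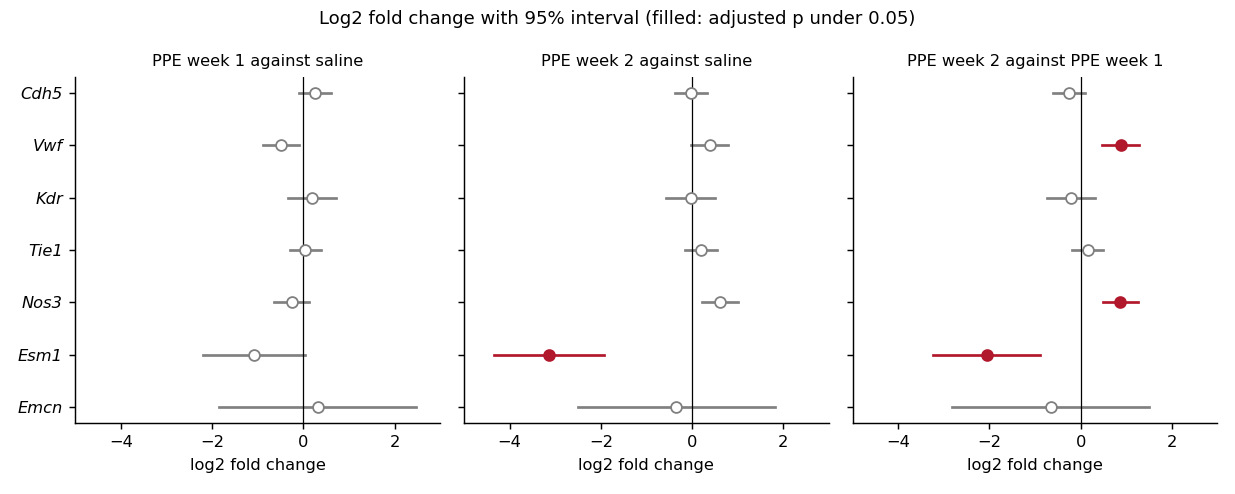
Log2 fold change of the 7 tested members in the 3 comparisons, with the first-named group over the second, from edgeR on all 12 libraries. Bars are 95% intervals, and filled red points mark an adjusted p under 0.05: Esm1 lower at PPE week 2 against both other groups, and Vwf and Nos3 higher at PPE week 2 against PPE week 1.

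Per kilobase of transcript, Cdh5 was the most abundant of the 6 fully counted genes and Esm1 the least in each group. In PPE week 2 the mean levels were 55.5 ± 19.7 CPM per kb for Cdh5, 45.4 ± 12.02 for Vwf, 21.9 ± 5.12 for Tie1, 21.4 ± 6.87 for Kdr, 15.2 ± 4.09 for Nos3 and 0.670 ± 0.402 for Esm1 (SD, n = 4). Here the ranges of Cdh5 and Vwf overlapped, as did those of Tie1 and Kdr and those of Kdr and Nos3. In PPE week 1 they were 66.5 ± 4.10 for Cdh5, 24.8 ± 4.88 for Kdr, 24.8 ± 6.35 for Vwf, 19.8 ± 2.84 for Tie1, 8.29 ± 0.827 for Nos3 and 2.82 ± 2.39 for Esm1, with overlap between Kdr and Vwf and between Vwf and Tie1. In saline they were 56.1 ± 3.51 for Cdh5, 34.8 ± 6.61 for Vwf, 21.8 ± 8.16 for Kdr, 19.1 ± 1.71 for Tie1, 9.92 ± 0.331 for Nos3 and 5.97 ± 2.50 for Esm1, with overlap between Vwf and Kdr and between Kdr and Tie1. Vwf thus stood second in PPE week 2 and in saline, and level with Kdr in PPE week 1. Emcn is left out of this order because only 1231 of the 2588 bases of its counted accession are its own. Nos3 is kept in it over all 4132 bases, although 1334 of them overlap genes on the opposite strand, so its place is uncertain.

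**Figure D2:**
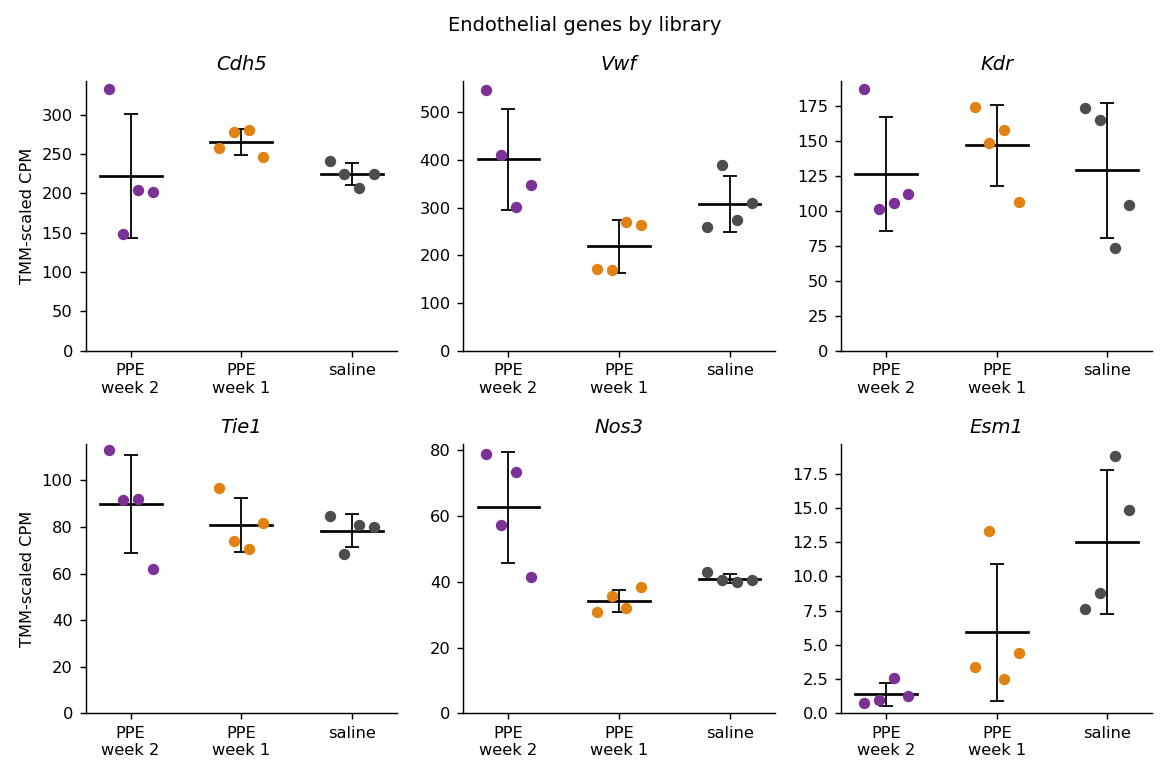
Level of the 6 fully counted endothelial genes in each library, in TMM-scaled CPM, for PPE week 2, PPE week 1 and saline from left to right. Points are libraries (n = 4 per group), lines are means and bars are 1 SD; Nos3 and Vwf at PPE week 2 lie wholly above PPE week 1, and Esm1 at PPE week 2 lies wholly below saline.

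None of the junction and receptor genes Cdh5, Kdr and Tie1 was called in any comparison. Cdh5, VE-cadherin, the adhesion molecule that defines the endothelial junction (NM_009868, chr8:104101613-104144504), had 333, 148.1, 204.5 and 201.2 CPM in PPE week 2 replicates 1 to 4, 258, 277.6, 280.6 and 246.1 CPM in PPE week 1, and 240.9, 224.6, 206.6 and 223.9 CPM in saline. The PPE week 1 libraries all lay above the saline ones, whereas the PPE week 2 libraries spread over both sides of them, with replicate 1 high and replicate 2 low. Against saline the log2 fold change was 0.25 ± 0.18 at PPE week 1 (edgeR adjusted p = 0.492) and -0.02 ± 0.18 at PPE week 2 (0.981), and between the PPE weeks it was -0.26 ± 0.18 (0.461). The 95% interval of the first ran between -0.11 and 0.60. Without PPE week 2 replicate 1, Cdh5 was called lower at PPE week 2 than at PPE week 1 (-0.53, edgeR adjusted p = 0.0283).

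Kdr, the main signalling receptor for VEGF (NM_010612, chr5:75932827-75979072), had 187.4, 101.7, 105.9 and 111.9 CPM in PPE week 2, 174.7, 149.0, 157.9 and 106.8 CPM in PPE week 1, and 174.0, 165.3, 73.6 and 104.5 CPM in saline. The 3 groups overlapped, and the widest was saline. Its log2 fold change against saline was 0.19 ± 0.27 at PPE week 1 and -0.03 ± 0.27 at PPE week 2, and that of PPE week 2 against PPE week 1 was -0.22 ± 0.27 (edgeR adjusted p = 0.784, 0.975 and 0.738). Tie1, a receptor tyrosine kinase that pairs with Tek (NM_011587, chr4:118471191-118489849), had 113.1, 91.7, 91.9 and 62.1 CPM in PPE week 2, 96.8, 74.0, 70.7 and 81.9 CPM in PPE week 1, and 84.6, 68.3, 80.6 and 79.8 CPM in saline. These groups overlapped too, with the highest and the lowest library both in PPE week 2. Its log2 fold changes in the same order were 0.04 ± 0.17, 0.20 ± 0.17 and 0.15 ± 0.17 (edgeR adjusted p = 0.930, 0.645 and 0.707). For PPE week 2 against saline the 95% interval ran between -0.15 and 0.54 for Tie1 and between -0.56 and 0.50 for Kdr.

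Within groups the levels of Cdh5 and Kdr were correlated. The deviations of their log2 CPM from the group means had a Pearson r of 0.64 over the 12 libraries (permutation within groups, p = 0.0026, adjusted over 15 pairs of members 0.0393) and a Spearman rho of 0.86 (permutation p = 0.0017, adjusted 0.0249). Without the 2 libraries farthest from the median of Cdh5 r was 0.75. None of the other 14 pairs passed after adjustment. The points share their libraries and their scaling.

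Nos3, endothelial nitric oxide synthase, had its highest mean in PPE week 2, its lowest in PPE week 1 and a narrow range in saline. Its accession NM_008713 lies at chr5:24364816-24384474. It had 78.8, 57.2, 73.3 and 41.4 CPM in PPE week 2, 30.8, 35.7, 32.2 and 38.3 CPM in PPE week 1, and 43.0, 40.5, 40.0 and 40.4 CPM in saline. All 4 PPE week 2 libraries lay above all 4 of PPE week 1, and all PPE week 1 libraries lay below saline. PPE week 2 and saline overlapped only through PPE week 2 replicate 4.

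Nos3 was 1.83-fold higher at PPE week 2 than at PPE week 1, at 62.7 ± 16.9 against 34.2 ± 3.42 CPM (log2 fold change 0.87 ± 0.20, edgeR adjusted p = 0.0156). This call was lost without PPE week 1 replicate 1, 2 or 3 (edgeR adjusted p = 0.0590, 0.0504 and 0.0511) and without PPE week 2 replicate 3 (0.0598). Against saline, PPE week 1 differed by -0.26 ± 0.20 (edgeR adjusted p = 0.524) and PPE week 2 by 0.61 ± 0.20 (0.115, unadjusted 0.0069), neither of them called. Without PPE week 2 replicate 4 the comparison with saline was called, at 0.76 (edgeR adjusted p = 0.0465). Of the 4132 bases of the transcript 1334, or 32.3%, overlap genes on the opposite strand, Atg9b and Gm15587, and the library kit does not mark strand. Counts on the Atg9b accession were 10 to 34 per library in PPE week 2, 4 to 24 in PPE week 1 and 9 to 63 in saline, or 1.68 to 5.21%, 1.04 to 5.57% and 2.93 to 20.1% of those on Nos3.

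Vwf, von Willebrand factor (NM_011708, chr6:125552948-125686679), had 546.4, 409.9, 302.4 and 347.2 CPM in PPE week 2, 171.3, 169.6, 270.7 and 264.2 CPM in PPE week 1, and 258.9, 389.4, 273.3 and 308.8 CPM in saline. Every PPE week 2 library lay above every PPE week 1 library, while saline overlapped both. PPE week 1 fell into a low pair, replicates 1 and 2, and a pair at the lower end of saline. Vwf was 1.83-fold higher at PPE week 2 than at PPE week 1, at 401 ± 106 against 219 ± 56.1 CPM (log2 fold change 0.87 ± 0.21, edgeR adjusted p = 0.0204). The call was lost without PPE week 1 replicate 1 or 2 (edgeR adjusted p = 0.0697 and 0.0780), and with the libraries of these 2 groups only (0.0502). Against saline, the log2 fold change was -0.49 ± 0.20 at PPE week 1 (edgeR adjusted p = 0.169, unadjusted 0.0299) and 0.38 ± 0.20 at PPE week 2 (0.368).

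Vwf is also made by megakaryocytes and carried by platelets. The summed level of 9 platelet and megakaryocyte markers was 198 to 335 CPM in PPE week 2, 143 to 291 CPM in PPE week 1 and 193 to 493 CPM in saline, with Treml1 at 0 in all libraries. Itgb3 had the highest mean of the tested markers in each group, at 161, 105 and 197 CPM in the same order. The sum therefore leans on that gene and is not a measure of platelets alone. Of the 7 markers tested none was called between the PPE weeks, where 6.59% of all tested features were. At PPE week 1 against saline 1 of them was called lower, where 3.91% of all tested features were. The part of platelets in the level of Vwf was not tested.

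Esm1, or endocan, a secreted proteoglycan that VEGF signalling induces and that marks sprouting endothelial tip cells, was the member that differed most. Its accession NM_023612 lies at chr13:113209659-113218104, and its first base lies within the promoter window shown. It had 0.745, 0.958, 2.62 and 1.29 CPM in PPE week 2, 3.39, 13.4, 2.54 and 4.38 CPM in PPE week 1, and 7.65, 8.78, 18.8 and 14.9 CPM in saline. All PPE week 2 libraries lay below all saline libraries. PPE week 1 lay between them, apart from replicate 2, which stood among the saline libraries, and replicate 3, which was just under the highest of PPE week 2. The counts behind these levels were low, at 8 to 30 per library in PPE week 2, 34 to 121 in PPE week 1 and 59 to 144 in saline.

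Esm1 was 8.82-fold lower at PPE week 2 than in saline, at 1.40 ± 0.843 against 12.5 ± 5.24 CPM (log2 fold change -3.14 ± 0.62, edgeR adjusted p = 0.0123). Without saline replicate 3 the difference was -2.88 and the edgeR adjusted p was 0.0504, just over the threshold. It was 4.16-fold lower at PPE week 2 than at PPE week 1 (log2 fold change -2.06 ± 0.60, edgeR adjusted p = 0.0491), a call that 10 of the 12 libraries ended when left out, all but PPE week 2 replicate 3 and PPE week 1 replicate 3, with edgeR adjusted p up to 0.277 without PPE week 1 replicate 2. At PPE week 1 the log2 fold change against saline was -1.08 ± 0.57 (edgeR adjusted p = 0.290).

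Emcn, endomucin, a sialoglycoprotein found mostly on venous and capillary endothelium (NM_001163522, chr3:137341062-137431069), had 253 counts in all 12 libraries together. Its level was 1.05 to 2.05 CPM in PPE week 2, 0 to 4.98 CPM in PPE week 1 and 0.297 to 4.83 CPM in saline, so the groups overlapped. Its counts ran from 0 to 50 per library within PPE week 1 and from 2 to 37 within saline. The log2 fold changes of Emcn carried an SE of 1.10 each, and with such an SE a difference of a few fold was not detectable.

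PPE week 2 replicate 1 had the highest level of all 12 libraries for 5 of the 6 fully counted genes, Cdh5, Kdr, Tie1, Vwf and Nos3, and the lowest for Esm1. The summed level of the members was 1262 CPM there and 766 to 812 CPM in the other 3 libraries of its group. That library also had the highest summed level of 6 adipocyte markers, 2605 CPM, against 182 to 1051 CPM in the rest of its group. Its part in the results is given by the values without it: Nos3 and Vwf were still called higher at PPE week 2 than at PPE week 1 (edgeR adjusted p = 0.0480 and 0.0475), and Esm1 was still called lower than in saline (0.0221). The call of Esm1 at PPE week 2 against PPE week 1 was lost (-1.85, edgeR adjusted p = 0.111), and Cdh5 was called lower in that comparison, as given above.

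To set the members against each other without any scaling, each count was divided by the count of Cdh5 in the same library, a comparison chosen after the values were seen. Per 100 Cdh5 counts, Vwf had 190 ± 58.5 in PPE week 2, 82.8 ± 22.6 in PPE week 1 and 138 ± 27.2 in saline, and Nos3 had 29.7 ± 8.89, 13.0 ± 1.84 and 18.3 ± 0.707 (SD, n = 4 each). A ratio also carries any difference in Cdh5, which at PPE week 1 lay wholly above saline (1.19-fold, not called). The Nos3 ratio did not overlap between any pair of groups, whereas in CPM Nos3 overlapped between PPE week 2 and saline. The share of all features whose ratio to Cdh5 does not overlap was not computed. For the Nos3 ratio the differences were as follows. It was 2.23-fold higher at PPE week 2 than at PPE week 1, 1.56-fold higher at PPE week 2 than in saline and 1.42-fold lower at PPE week 1 than in saline. The Vwf ratio was 2.29-fold higher at PPE week 2 than at PPE week 1 and 1.69-fold lower at PPE week 1 than in saline. The Esm1 ratio, at 0.699 ± 0.437 in PPE week 2, 2.20 ± 1.78 in PPE week 1 and 5.70 ± 2.71 in saline, was 8.90-fold lower at PPE week 2 than in saline. Each of these 6 differences had a two-sided exact permutation p of 0.0286, the smallest that 4 libraries against 4 allow. After adjustment over 15 tests it was 0.0714, so none passed the threshold. Passing would have needed most of the 15 tests at that smallest p, so not passing says little about the ratios. The Tie1 and Kdr ratios overlapped in all 3 comparisons, with Kdr at 58.1 ± 7.32 in PPE week 2, 55.3 ± 9.98 in PPE week 1 and 57.0 ± 18.9 in saline.

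**Figure D3:**
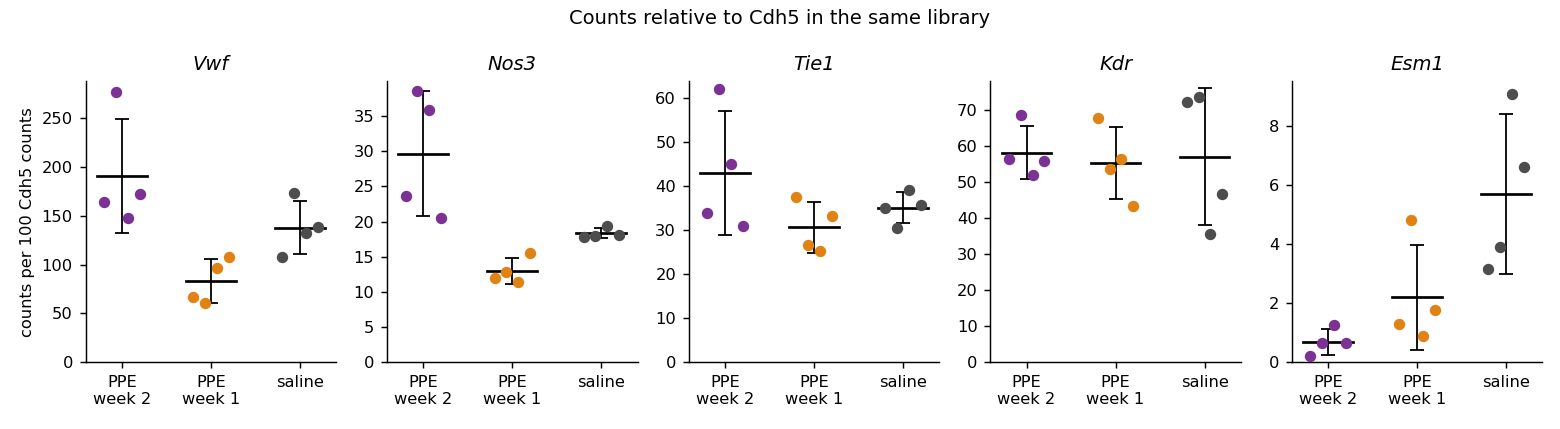
Counts of Vwf, Nos3, Tie1, Kdr and Esm1 per 100 Cdh5 counts in the same library, for PPE week 2, PPE week 1 and saline (points are libraries, n = 4 per group, lines are means, bars are 1 SD). The Nos3 ratio averages 29.7, 13.0 and 18.3 in the 3 groups without overlap, and the Kdr ratio stays between 55.3 and 58.1 on average.

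In the authors' deposited table for PPE week 1 against saline, 7 members were listed and Vwf alone had an adjusted p under 0.05 (log2 fold change -0.50, adjusted p = 0.0343), where 17.4% of 13810 listed features did. The authors' deposited table for PPE week 2 against saline listed 6 members, without Emcn, and Esm1 alone was under 0.05 (log2 fold change -2.06, adjusted p = 1.69e-05), where 3.83% of 9917 listed features were.

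The wider set of endothelial pathways was described with 7 lists of 104 genes, of which 86 were tested. At PPE week 1 against saline 3 were called higher and 12 lower (17.4% of the 86, beside 7.89% of all tested features), at PPE week 2 against saline 3 higher and 3 lower (6.98%, beside 2.65%), and between the PPE weeks 7 higher and 5 lower (14.0%, beside 6.59%). Scaled by library size alone, 8 of the 15 calls at PPE week 1 against saline were lost (Afdn, Heg1, Jag1, Jam2, Jam3, Klf4, Ptgis and Smad9), 3 of the 6 at PPE week 2 against saline (Bmper, Cd93 and Heg1) and 0 of the 12 between the weeks. With the NR_046233 share as a covariate 15, 6 and 11 of them were lost, in the same order of comparisons, and Id3 between the weeks was the one that passed. The lists also hold genes of other wall cells, and the summed level of 8 smooth muscle markers was 4371 to 9833 CPM in PPE week 2, 1537 to 2818 CPM in PPE week 1 and 4805 to 6292 CPM in saline. Of those 8 markers 6 were called lower at PPE week 1 than in saline, beside 3.91% of all tested features. Between the weeks 6 of them were called higher at PPE week 2, beside 3.77% of all tested features. The part of smooth muscle RNA in the pathway counts was not tested.

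**Figure D4:**
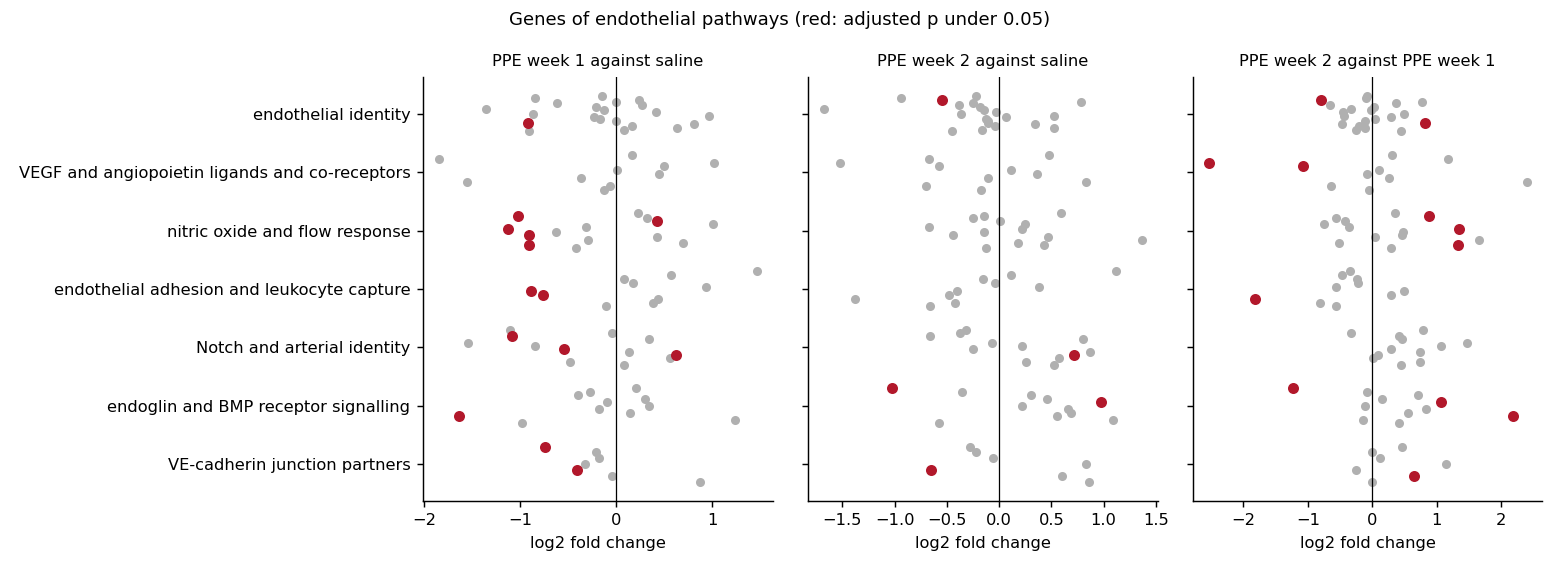
Log2 fold change of the tested genes of the 7 endothelial pathway lists in the 3 comparisons, 1 point per gene, with red for an edgeR adjusted p under 0.05. Krit1 is left out of all 3 panels, because it had no count in saline. At PPE week 1 against saline 12 of the 15 called genes are lower, and Krit1 is 1 of the 3 called higher, so its red point is missing. Fewer genes are called at PPE week 2 against saline.

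In the list of endothelial identity genes 21 of 24 were tested, and 1 was called lower at each of PPE week 1 and PPE week 2 against saline. Of all tested features 3.91% and 1.35% were called lower in these 2 comparisons. The median log2 fold changes of the list were -0.13 and -0.15. Ptprb, the vascular endothelial phosphatase that acts on Tek and VE-cadherin, was 1.89-fold lower at PPE week 1 than in saline, at 252 ± 27.3 against 478 ± 20.1 CPM (-0.92 ± 0.15, edgeR adjusted p = 0.0027), and higher at PPE week 2 than at PPE week 1 (0.81 ± 0.15, 0.0053). Cd93, an endothelial lectin-like receptor that also occurs on myeloid cells, was at 195 ± 18.2 CPM in PPE week 2, against 338 ± 39.1 CPM in PPE week 1 and 286 ± 13.8 CPM in saline. It was called lower at PPE week 2 against both (-0.79 ± 0.12, edgeR adjusted p = 0.0011, and -0.55 ± 0.12, 0.0189). The second of these calls was lost without PPE week 2 replicate 4 or saline replicate 4, with edgeR adjusted p up to 0.0599, and with the libraries of these 2 groups only (0.0668). Cldn5, a tight junction protein, was called in no comparison, with its largest log2 fold change 0.78 ± 0.30 at PPE week 2 against saline (edgeR adjusted p = 0.184).

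Among the ligands and co-receptors of VEGF and angiopoietin signalling, 10 of 14 were tested and none was called against saline by edgeR, while at an unadjusted p under 0.05 each PPE week had 2 above and 2 below, or 4 of 10, beside 21.7% of all features at PPE week 1 and 16.6% at PPE week 2 (8.84% higher and 7.72% lower). The median log2 fold change was -0.02 at PPE week 1 and -0.14 at PPE week 2 against saline, and 0.02 between the weeks. Apln, the peptide apelin of sprouting endothelium, was 5.82-fold lower at PPE week 2 than at PPE week 1, at 1.75 ± 0.405 against 10.2 ± 2.99 CPM (-2.54 ± 0.51, edgeR adjusted p = 0.0073). Its receptor Aplnr was 2.10-fold lower, at 31.1 ± 5.003 against 65.3 ± 11.9 CPM (-1.07 ± 0.24, edgeR adjusted p = 0.0133), a call lost without PPE week 1 replicate 2 (0.0573). Flt1, VEGF receptor 1, and Angpt2, an angiopoietin stored by endothelial cells, were called in no comparison, with log2 fold changes at PPE week 2 against saline of 0.12 ± 0.22 and 0.48 ± 0.21 (edgeR adjusted p = 0.859 and 0.261). Vegfa and Angpt1 had no count in any library and Acvrl1 too few to test, all of them genes with several isoforms in the table.

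In the nitric oxide and flow response list, around Nos3, 14 of 18 genes were tested. At PPE week 1 against saline 4 were lower and 1 higher, where 3.91% of all tested features were called lower and 3.98% higher. The median of the list was -0.30. Cavin1, a coat protein of caveolae, was at 327 ± 28.01 against 665 ± 39.8 CPM (-1.02 ± 0.17, edgeR adjusted p = 0.0022). Gucy1a1, a subunit of the nitric oxide receptor of smooth muscle, was at 74.8 ± 21.1 against 164 ± 30.3 CPM (-1.13 ± 0.22, edgeR adjusted p = 0.0055). Klf4, a transcription factor that laminar flow induces in endothelium, and Ptgis, prostacyclin synthase, were lower by a similar amount (-0.91 ± 0.22 and -0.90 ± 0.22, edgeR adjusted p = 0.0170 and 0.0210). Leaving out 1 library ended the call of Klf4 for 4 of the 12, PPE week 1 and saline replicates 3 and 4, and that of Ptgis for 5, PPE week 1 replicates 1, 2 and 4 and saline replicates 3 and 4, with edgeR adjusted p up to 0.0602 and 0.0810. The 1 gene that was higher, Ece1, the endothelin-converting enzyme, was named after its value was seen (0.43 ± 0.12, edgeR adjusted p = 0.0440), and leaving out any of the 8 libraries of that comparison ended its call (up to 0.159). None of the 14 was called at PPE week 2 against saline by edgeR, while 1 was lower at an unadjusted p under 0.05, where 7.72% of all features were. At PPE week 2 against PPE week 1, Gucy1a1 (1.35 ± 0.22), Ptgis (1.33 ± 0.22) and Cavin1 (0.87 ± 0.17) were higher (edgeR adjusted p = 0.0022, 0.0028 and 0.0053). Klf2, another factor that flow induces, was called in no comparison, at -0.62 ± 0.21 at PPE week 1 against saline (edgeR adjusted p = 0.0780).

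All 10 genes of endothelial adhesion and leukocyte capture were tested. Jam2 and Jam3, junctional adhesion molecules, were lower at PPE week 1 than in saline (-0.89 ± 0.22 and -0.76 ± 0.22, edgeR adjusted p = 0.0188 and 0.0461). The call of Jam2 was lost without PPE week 1 replicate 1, 2 or 4 or saline replicate 1 or 2, and that of Jam3 without any of the 8 libraries compared, with edgeR adjusted p up to 0.0745 and 0.146. The median of the list was 0.28 at PPE week 1 and -0.28 at PPE week 2 against saline, and -0.40 between the weeks, and none was called at PPE week 2 against saline, while 2 were lower at an unadjusted p under 0.05 by edgeR, beside the same 7.72% of all features. Sele, E-selectin of activated endothelium, was 3.53-fold lower at PPE week 2 than at PPE week 1, at 5.39 ± 4.12 against 19.2 ± 4.00 CPM (-1.82 ± 0.44, edgeR adjusted p = 0.0206). That call was lost without PPE week 2 replicate 3 or PPE week 1 replicate 1, 2 or 4, with edgeR adjusted p up to 0.0694, and with the libraries of the 2 PPE groups only (0.0627). Vcam1, the adhesion molecule for leukocytes, was called in no comparison. The summed level of 5 leukocyte markers was 511 to 1418 CPM in PPE week 2, 1233 to 1507 CPM in PPE week 1 and 432 to 548 CPM in saline. Within PPE week 2 it was low in replicates 1 and 3 and high in replicates 2 and 4, and its part in the adhesion genes was not tested.

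Of the Notch and arterial genes 12 of 14 were tested. Notch1, a receptor of arterial endothelium, was higher than in saline at PPE week 2 and PPE week 1 (0.71 ± 0.13 and 0.62 ± 0.13, edgeR adjusted p = 0.0105 and 0.0101). Its level was 142 ± 20.02 CPM in PPE week 2 and 134 ± 13.4 CPM in PPE week 1, against 86.8 ± 3.00 CPM in saline. The first difference was not called with the libraries of PPE week 2 and saline only (edgeR adjusted p = 0.0571). The second was not called without PPE week 1 replicate 2 (edgeR adjusted p = 0.0539). Efnb2, an arterial ephrin, and Jag1, a Notch ligand, both also made by smooth muscle, were lower at PPE week 1 than in saline (-1.08 ± 0.20 and -0.54 ± 0.15, edgeR adjusted p = 0.0041 and 0.0321). The call of Jag1 was lost without any of the 8 libraries compared, with edgeR adjusted p up to 0.0964. The median of the list was -0.26 at PPE week 1 and 0.24 at PPE week 2 against saline, and 0.45 between the weeks. Between the PPE weeks none of the 12 was called by edgeR, while 4 were higher at an unadjusted p under 0.05, where 20.5% of all features were under it (10.6% higher and 9.87% lower).

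In the list around endoglin and BMP receptors 11 of 13 were tested. Id3, a target of BMP signalling, was 1.97-fold higher at PPE week 2 than in saline, at 75.2 ± 9.83 against 38.2 ± 11.03 CPM (0.98 ± 0.21, edgeR adjusted p = 0.0184), and 2.10-fold higher than at PPE week 1 (1.07 ± 0.21, 0.0056). The first was not called without saline replicate 4 or with the libraries of these 2 groups only (edgeR adjusted p = 0.0619 and 0.0802). Bmper, a secreted BMP-binding protein of endothelium, was lower at PPE week 2 than in saline (-1.03 ± 0.18, edgeR adjusted p = 0.0075) and than at PPE week 1 (-1.23 ± 0.18, 0.0011). Smad9, a BMP signal transducer, was lower at PPE week 1 than in saline (-1.63 ± 0.41, edgeR adjusted p = 0.0235) and higher at PPE week 2 than at PPE week 1 (2.18 ± 0.42, 0.0053). The first of these was lost without PPE week 1 replicate 1, 2 or 3 or saline replicate 2, with edgeR adjusted p up to 0.0844. The median of the list was -0.09 at PPE week 1 and 0.45 at PPE week 2 against saline, and 0.41 between the weeks.

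Among partners of the VE-cadherin junction 8 of 11 were tested. Heg1, an endothelial receptor that binds Krit1, was at 345 ± 33.2 CPM in PPE week 2 and 411 ± 39.2 CPM in PPE week 1, against 543 ± 53.3 CPM in saline (-0.65 ± 0.12 and -0.40 ± 0.11, edgeR adjusted p = 0.0073 and 0.0403). The call at PPE week 1 was lost without any of its 4 PPE week 1 libraries or saline replicate 1, 3 or 4, with edgeR adjusted p up to 0.141. Afdn, afadin, a linker of junctions to actin, was lower at PPE week 1 than in saline (-0.74 ± 0.15, edgeR adjusted p = 0.0064), and Jup, plakoglobin, was higher at PPE week 2 than at PPE week 1 (0.64 ± 0.18, 0.0441). The call of Jup was lost without 7 of the 12 libraries, PPE week 2 replicate 1 or 3, any PPE week 1 library or saline replicate 1, with edgeR adjusted p up to 0.145. The median of the list was -0.20 at PPE week 1 and 0.27 at PPE week 2 against saline, and 0.29 between the weeks. Krit1 was counted only on the non-coding accession NR_033173, with 0 counts in saline. It averaged 2.31 ± 1.46 CPM at PPE week 2 and 1.22 ± 0.759 CPM at PPE week 1. Those means were 25.9-fold and 13.7-fold above a floor of 3 counts over the saline group. That floor allows for counting noise alone, so these folds are not lower bounds on the difference between mice. The call of Krit1 was lost without 8 of the 12 libraries at PPE week 2 and 5 at PPE week 1, with edgeR adjusted p up to 0.0754 and 0.0747.

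**Figure D5:**
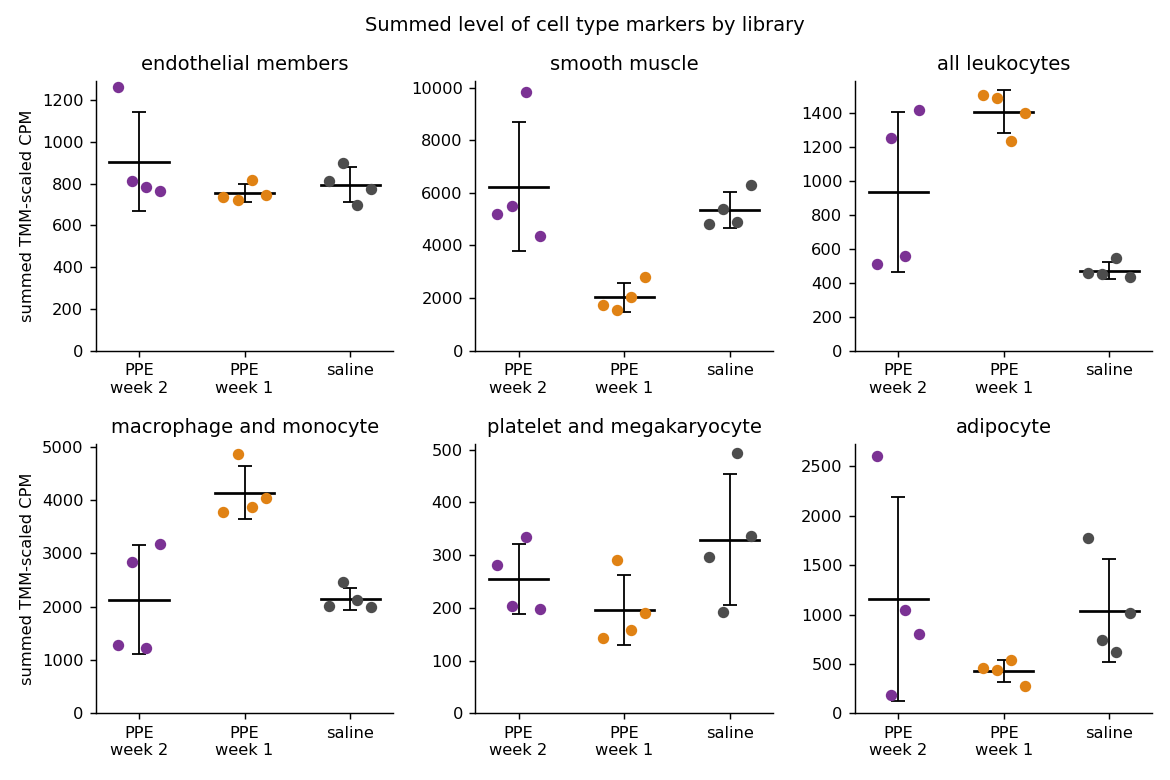
Summed TMM-scaled CPM of the 10 endothelial genes (Pecam1 and Tek at 0) and of the marker lists of 5 other cell types in each library, for PPE week 2, PPE week 1 and saline (points are libraries, n = 4 per group, lines are means, bars are 1 SD). The endothelial sum overlaps between all 3 groups, at 766 to 1262, 721 to 818 and 698 to 897 CPM, while the smooth muscle sum at PPE week 1 lies wholly below the other groups and the leukocyte sum at PPE week 1 wholly above saline.

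Summed over the endothelial members the level was 766 to 1262 CPM in PPE week 2, 721 to 818 CPM in PPE week 1 and 698 to 897 CPM in saline, and the 3 groups overlapped. Beside it, macrophage and monocyte markers summed to 1220 to 3175 CPM in PPE week 2, 3773 to 4869 CPM in PPE week 1 and 1989 to 2456 CPM in saline. Lymphatic endothelial markers summed to 46.3 to 61.4, 46.3 to 71.9 and 48.3 to 74.1 CPM in the same order, with Mmrn1, Reln and Ccl21a at 0 in all libraries. Pecam1 and Tek were at 0 in the endothelial sum, Itgam in the macrophage sum and Treml1 in the platelet sum. Genes at 0 add nothing, so each sum also depends on which genes could be counted. Whether the genes at 0 were expressed was not tested. The part of these cell types in the endothelial levels was not tested.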

How the data were processed

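RNA was measured in 12 aortas, 1 library per mouse per the labels. Total RNA was extracted with TRIzol and purified on RNeasy columns, and libraries were made with a TruSeq RNA kit v2, per the labels' protocols, a kit that does not mark strand. Of the authors' processing, bcl2fastq, DESeq2 and mm10 are named per the submitters' processing notes, while an aligner or counter is not given in the sources used.

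The deposited files are a table of raw counts, with RefSeq accessions as rows and libraries as columns, and the results of the authors against saline, as log2 fold change and p-value, raw and adjusted. Whether those fold changes were shrunken is not stated. RefSeq's GRCm38.p6 gene table named 34424 of the 34755 accessions and GENCODE's 192 more. In the deposited counts, accessions that share all their bases with another isoform had counts at or near 0, so genes with several isoforms are undercounted. Between 66.0 and 75.6% of the counts of 2 to 20 were even, and halved counts were an alternative. Replicates differed beyond sampling noise (chi-square per feature 16.0 to 96.2), so each library is 1 sample. The p-values measure the spread between libraries, 1 per mouse, in which mice and library preparation cannot be told apart.

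Counts were tested with edgeR 4.0.16 in R 4.3.3 (filterByExpr defaults, TMM, robust quasi-likelihood, 1 mean per group, two-sided, Benjamini-Hochberg over 12756 features, threshold 0.05), after the script was tested on simulated data. The SE is the log2 fold change divided by the square root of F. The 95% intervals are 1.96 SE on either side, a normal approximation that is somewhat narrower than the F test implies with 12 libraries. DESeq2 1.42.0 and limma 3.58.1 were alternatives. Exact and permutation tests used scipy 1.17.1, with 100000 permutations for correlations on log2(CPM + 0.1).

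Named genes are all 10 members, up to 4 called genes per pathway list and comparison by size of change, and Flt1, Vegfa, Angpt1, Angpt2, Cldn5, Klf2, Vcam1 and Acvrl1. Of the lists of other cells only counts and summed levels are given, apart from the means of Itgb3. Members and lists were chosen with earlier results of these data known. Promoters are RefSeq's (GRCm38.p6).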

Additional observations from a re-analysis of the deposited data

Results flagged for a closer look

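In 21 groups of 4 libraries (7 members, 3 groups), 3 held a library far from the other 3 by Dixon's criterion, where chance gives about 1 in 20 groups. Kdr stood at 187.4 CPM in PPE week 2 replicate 1, above the 102 to 112 CPM of its group. Nos3 stood at 43.0 CPM in saline replicate 1, in a group whose others lay at 40.0 to 40.5 CPM. Esm1 stood at 13.4 CPM in PPE week 1 replicate 2, above the 2.54 to 4.38 CPM of its group, and without that library the difference between PPE week 2 and PPE week 1 was -1.28 (edgeR adjusted p = 0.277).

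The effects of PPE at week 2 and at week 1, each against saline, differed for 3 of the 7 tested members when the difference itself was tested with edgeR. Of all tested features 6.59% were called in that test. That difference was 0.87 on the log2 scale for Vwf, 0.87 for Nos3 and -2.06 for Esm1. Since saline cancels, it is the comparison of PPE week 2 with PPE week 1 given above and no separate result. None of the 3 passed with the NR_046233 share as a covariate, and the call of Esm1 was lost without 10 of the 12 libraries.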

How the results depend on the processing

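Each result was recomputed under 10 other settings and without each of the 12 libraries in turn. Library size without TMM put the median of all features at 0.28, 0.54 and 0.23 on the log2 scale (PPE week 1 and PPE week 2, each against saline, then PPE week 2 against PPE week 1), with 1032 higher and 195 lower features against 508 and 499, 1607 and 27 against 166 and 172, and 681 and 75 against 481 and 360. There 3 members, Tie1, Vwf and Nos3, were higher at PPE week 2 than in saline, and the member median was 0.30 at PPE week 1 and 0.46 at PPE week 2 against saline. With limma-voom it was -0.28 at PPE week 1 against saline and 0.11 between the weeks, and DESeq2 called 832 features higher and 755 lower, 410 and 335, and 812 and 651 in the 3 comparisons. Between the weeks the count of members called lower was 0 with library size only, limma-voom, the libraries of the 2 groups only and the NR_046233 share as a covariate, and the count called higher was 1 with the 2 groups only and 0 with the covariate. With the covariate 0 members were lower at PPE week 2 than in saline, and 0 features were called in that comparison. The numbers of the replicates pair no samples: same-numbered libraries had correlations of -0.088 to 0.035, with 0 of 12 libraries closest to their own number. A replicate block left 1 member higher and 0 lower between the weeks, where Vwf had an edgeR adjusted p of 0.0635 and Esm1 0.0729, and changed no other call of a member. Among called pathway genes it ended those of Ece1, Heg1, Jag1 and Krit1 at PPE week 1 against saline, Krit1 at PPE week 2 against saline and Jup between the weeks.

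Leaving out 1 library gave 0 to 2 members higher and 0 to 1 lower between the weeks, 0 to 1 higher and 0 to 1 lower at PPE week 2 against saline, and 0 at PPE week 1 against saline. The member median ranged between -0.24 and 0.11 at PPE week 1 against saline, between -0.28 and 0.20 at PPE week 2 against saline and between -0.47 and -0.11 between the weeks. Features called higher and lower ranged over 156 to 788 and 222 to 607, 67 to 218 and 73 to 198, and 207 to 642 and 112 to 607.

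Of 476 recomputed member results 29 changed sign, and none of those passed the threshold. With the other named genes included, 52 results changed sign, again none past the threshold. The values that follow hold both members and the other named genes Vcam1, Flt1, Cldn5 and Klf2. At PPE week 1 against saline, library size only gave Nos3 0.013 and Vcam1 0.15, limma-voom gave Emcn -0.31, and the covariate gave Emcn -0.039, Flt1 -0.31 and Cldn5 -0.47. Cldn5 lay at -0.0053 with 2 groups only, -0.016 with DESeq2, -0.0076 with counts halved and -0.0026 with accessions summed, and Flt1 at -0.00065 with DESeq2. The ratio to Cdh5 gave Tie1 -0.21. At PPE week 2 against saline, library size only gave Cdh5 0.46, Kdr 0.46, Emcn 0.14 and Klf2 0.33, and library size without NR_046233 gave Cdh5 0.034 and Kdr 0.021. There limma-voom gave Emcn 0.18, the covariate gave Kdr 0.096, Flt1 -0.50 and Cldn5 -0.13, and the ratio to Cdh5 gave Kdr 0.083. Between the weeks limma-voom gave Emcn 0.49, the covariate gave Flt1 -0.18 and the ratio gave Kdr 0.082. Leaving out 1 library moved Tie1 between -0.050 and 0.11, Emcn between -0.24 and 1.19, Flt1 between -0.13 and 0.11, Cldn5 between -0.14 and 0.22, Kdr between -0.0043 and 0.37 and Vcam1 between -0.26 and 0.027 at PPE week 1 against saline; Cdh5 between -0.28 and 0.13, Kdr between -0.28 and 0.14, Flt1 between -0.14 and 0.26 and Emcn between -0.70 and 0.52 at PPE week 2 against saline; Flt1 between -0.16 and 0.24 between the weeks. The causes were not tested. Esm1 and Emcn had low counts and varied widely between libraries, and their values are imprecise.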
